A study of Mus musculus with 19 samples.

Results

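The experiment asked which genes differ in the vomeronasal organ (VNO) when Smad4 is deleted in mature vomeronasal sensory neurons (VSNs) with OMPCre. It holds 9 of the 19 libraries of the series, chosen by their titles: 3 of OMPCre Smad4 conditional knockouts (cKO), 3 of OMPCre heterozygotes (Het) and 3 of a control without Cre. Each library came from whole VNOs of mice at postnatal day 21, labelled as female, and each is titled as a biological replicate. The genotype label of the cKO is "OMPCre +/- SMAD4 Flox" and that of the Het is "OMPCre +/-". The control without Cre is labelled "Wild Type", while the design text of the series and the methods of the study give Smad4flox/flox, so it is called the flox control here. OMPCre is Cre placed in the Omp gene, so Het and cKO mice carry 1 working copy of Omp and flox controls carry both, and the Het shares the Cre but not the floxed alleles with the cKO. PolyA+ RNA was sequenced, and values are given as counts per 1000000 (CPM) after scaling of each library by the TMM method.

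The VNO detects pheromones and other social cues. Its sensory epithelium holds apical VSNs, which use V1r receptors and the G protein subunit encoded by Gnai2, and basal VSNs, which use V2r receptors and the subunit encoded by Gnao1. Both kinds are made throughout life from dividing progenitors, and the new neurons pass through an immature stage before they turn on Omp. Smad4 carries signals of the TGF-beta and BMP families to the nucleus together with receptor-activated SMADs. Because Omp is a gene of mature VSNs, OMPCre acts after cell division and the immature stage, and dividing progenitors, glia, glands, vessels and bone in the same organ keep the floxed Smad4 gene.

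The 9 libraries held 48720051 to 75583450 estimated counts (median 63361172), with 20196 to 21632 genes at a count of at least 1, so a gene at 3 counts lay at no more than 0.0616 CPM. The label for cell type names mature apical and basal VSNs, but the libraries held the whole organ. The 36 listed gland and secretion genes summed to 122876 to 289041 CPM per library, against 4533 to 5283 CPM for 27 genes of mature VSNs. Trpc2, the ion channel of VSN signalling, lay between 85.1 and 139 CPM. Smad4 had 62.6, 62.5 and 54.1 CPM in the cKO and 65.4 to 83.9 CPM in the 6 controls, without overlap, with all other cells of the organ counted along. Counts were summed over the whole gene, so they do not measure the loss of exon 8, which the study describes as flanked by LoxP sites. In RNA of a whole organ, fewer cells of a type and less RNA per cell cannot be told apart. Flox replicate 3 stood apart from the other 8 libraries on the first principal component (23.8% of the variance), and its values are given wherever they bear on a result.

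The 3 cKO libraries were compared with all 6 controls by edgeR's quasi-likelihood test over 18623 genes, with Benjamini-Hochberg adjustment. At an adjusted p under 0.05, 0 genes were called (0%), and the smallest adjusted p was 0.0503. Without adjustment, 384 genes were higher in cKO at p under 0.05 (2.06% of those tested) and 351 were lower (1.88%). All 3 cKO libraries lay above all 6 controls for 258 genes (1.39%) and below them for 174 (0.934%). Over all genes the median log2 fold change was −0.00463 with quartiles of −0.11 and 0.09, and 51.3% of genes were lower and 48.7% higher in cKO. DESeq2, the tool of the study, called 43 genes (0.231%), 25 higher and 18 lower, and the groups did not overlap for 35 of them. Since no gene was called in the edgeR comparison, genes are described below by their values in each library, and gene groups by counts set against these shares of all genes.

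Genes of dividing cells were lower in the cKO as a group. Of 52 replication genes, which copy DNA in S phase, 50 were lower, and of 70 mitosis genes, which build the spindle, kinetochores and cleavage furrow, 68 were lower. Across both lists 36 of the 122 genes were lower at an unadjusted edgeR p under 0.05 (29.5%, against 1.88% of all genes) and 0 were higher. All 3 cKO libraries lay below all 6 controls for 21 of them (17.2%, against 0.934%). The median log2 fold change of the 122 genes was −0.32, a level of 0.798 of that in controls. Kif15, Racgap1, Rfc3 and Gins3 were the 4 genes that were not lower, with log2 fold changes of 0.21, 0.05, 0.07 and 0.05. The smallest adjusted p in the lists was 0.529.

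Summed over the replication list, the flox controls had 545.6, 600.8 and 558.9 CPM, the Het 592.0, 557.0 and 584.8 CPM, and the cKO 514.1, 523.1 and 414.3 CPM. The mitosis list summed to 690.4, 789.3 and 829.8 CPM in flox controls, 734.6, 681.2 and 833.1 CPM in Het, and 668.9, 642.9 and 503.9 CPM in cKO. For both lists each cKO library was below each control, and cKO replicate 3 was far below the other 2. The difference was seen against either kind of control. The median of the replication genes was −0.24 against Het and −0.22 against flox controls, and that of the mitosis genes −0.35 and −0.40. Against Het, 23 of the 122 genes were lower at an unadjusted p under 0.05, where 2.18% of all genes were, and against flox controls 26 were, where 2.52% of all genes were.

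**Figure D1:**
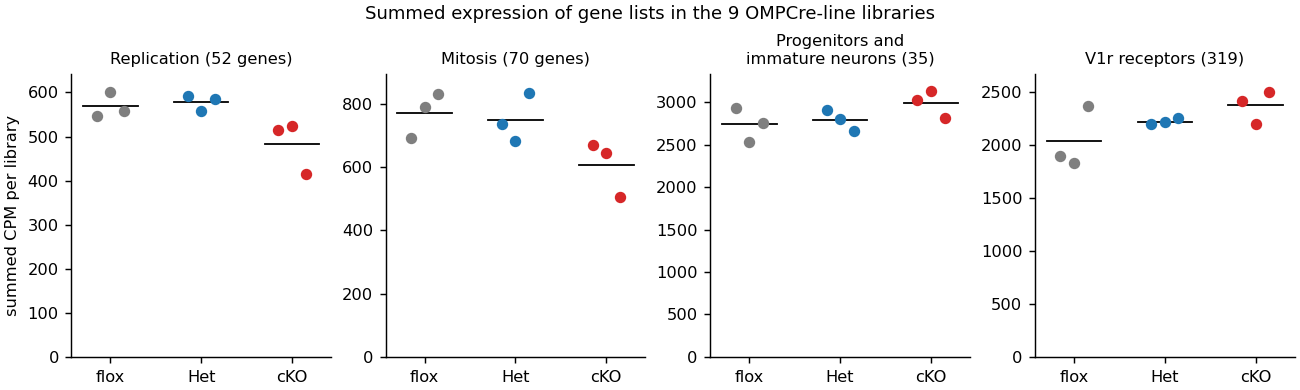
Summed CPM per library for 4 gene lists, with flox controls in grey, Het in blue and cKO in red, and a line at each group's mean. The 3 cKO libraries lie below all 6 controls in the replication and mitosis panels, while the groups overlap in the panels of progenitor and immature neuron genes and of V1r receptors.

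The leading replication genes encode parts of the MCM helicase, which opens DNA at replication forks, and Uhrf1, which keeps DNA methylation on newly copied strands. Mcm3 (ENSMUSG00000041859.10) had 14.0, 15.6 and 14.1 CPM in flox controls, 15.8, 14.4 and 14.7 CPM in Het, and 9.84, 11.5 and 7.97 CPM in cKO. Its log2 fold change was −0.59 with a standard error of 0.12 (edgeR adjusted p = 0.529; DESeq2 adjusted p = 0.00434). Mcm5 had 12.8 to 15.8 CPM in the 6 controls and 10.0, 11.5 and 7.62 CPM in cKO. Uhrf1 had 13.1 to 15.8 CPM in controls and 11.2, 11.6 and 8.61 CPM in cKO, and Mcm2 had 16.8 to 20.1 and 16.3, 16.2 and 12.6 CPM. For these 4 genes all cKO libraries were below all controls. Pcna, the sliding clamp of the replication fork and the most abundant gene of the list, overlapped, with 47.4 to 56.9 CPM in controls and 50.1, 43.0 and 35.2 CPM in cKO.

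The leading mitosis genes were Knl1, a scaffold of the kinetochore, and Bub1b, a kinase of the spindle checkpoint. Knl1 (ENSMUSG00000027326.13) had 6.25, 7.91 and 9.06 CPM in flox controls, 8.22, 6.01 and 11.3 CPM in Het, and 4.76, 4.31 and 3.48 CPM in cKO. Its log2 fold change was −0.96 with a standard error of 0.22 (edgeR adjusted p = 0.909; DESeq2 adjusted p = 0.0172). Bub1b (ENSMUSG00000040084.9) had 6.88 to 10.8 CPM in the 6 controls and 6.07, 4.50 and 4.53 CPM in cKO, a log2 fold change of −0.75 with a standard error of 0.17. Esco2, which acetylates cohesin, and Cdc20, an activator of the anaphase-promoting complex, had 3.86 to 4.78 and 6.46 to 9 CPM in controls, against 2.22 to 3.19 and 4.66 to 5.65 CPM in cKO. These 4 genes did not overlap between cKO and controls. Mki67, the proliferation marker and the most abundant gene of the list, had 62.5 to 110 CPM in controls and 64.7, 74.2 and 43.5 CPM in cKO, so its groups overlapped.

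The promoters of Mcm3, Mcm5, Knl1 and Bub1b are shown because these are leading genes of the replication and the mitosis list, and such genes are known for different promoter motifs. Genes of DNA replication are known to be controlled through E2F sites, and many genes of mitosis through the cell cycle homology region (CHR), often with CCAAT boxes bound by NF-Y. Each window runs from 250 bases before to 50 bases after the gene's start in RefSeq (build GRCm38.p6), 5′ to 3′ on the gene's strand. Capitals mark TTTCCCGC and TTTGGCGC (E2F), TTTGAA (CHR) and CCAAT, searched on both strands, and no match overlapped another in these windows. The window of Mcm3 is chr1:20820263-20820562 on the minus strand, that of Mcm5 chr8:75109259-75109558 on the plus strand, that of Knl1 chr2:119046869-119047168 on the plus strand, and that of Bub1b chr2:118597961-118598260 on the plus strand.
Mcm3: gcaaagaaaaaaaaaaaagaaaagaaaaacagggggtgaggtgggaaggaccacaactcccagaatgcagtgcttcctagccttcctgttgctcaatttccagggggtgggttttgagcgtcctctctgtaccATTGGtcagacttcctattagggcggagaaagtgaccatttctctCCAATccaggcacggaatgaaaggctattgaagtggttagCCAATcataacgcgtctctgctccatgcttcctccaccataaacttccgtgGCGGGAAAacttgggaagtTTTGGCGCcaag
Mcm5: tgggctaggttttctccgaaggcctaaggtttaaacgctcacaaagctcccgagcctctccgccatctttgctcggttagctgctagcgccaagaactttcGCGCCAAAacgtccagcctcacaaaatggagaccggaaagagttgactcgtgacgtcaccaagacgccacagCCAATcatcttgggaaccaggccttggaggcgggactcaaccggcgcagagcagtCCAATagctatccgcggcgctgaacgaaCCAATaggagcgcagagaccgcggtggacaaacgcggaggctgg
Knl1: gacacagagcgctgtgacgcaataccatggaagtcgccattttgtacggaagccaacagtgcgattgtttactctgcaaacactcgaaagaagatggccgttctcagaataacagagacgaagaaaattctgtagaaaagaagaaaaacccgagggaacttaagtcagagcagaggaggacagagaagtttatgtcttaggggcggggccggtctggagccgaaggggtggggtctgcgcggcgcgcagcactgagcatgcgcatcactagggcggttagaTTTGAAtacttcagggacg
Bub1b: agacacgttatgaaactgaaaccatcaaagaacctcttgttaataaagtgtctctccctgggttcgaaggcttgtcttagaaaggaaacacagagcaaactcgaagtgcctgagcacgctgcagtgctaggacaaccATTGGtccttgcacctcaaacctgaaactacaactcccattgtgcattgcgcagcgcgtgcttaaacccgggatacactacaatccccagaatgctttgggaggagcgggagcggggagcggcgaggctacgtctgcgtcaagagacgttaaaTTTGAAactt
The Mcm3 window holds an E2F match of each kind, at 20 and 39 bases after the start, and 3 CCAAT matches. The Mcm5 window holds a TTTGGCGC match 149 bases before the start and 3 CCAAT matches. The Knl1 and Bub1b windows hold a CHR match, 32 and 41 bases after the start, and that of Bub1b also a CCAAT match. Among 27025 promoters of the same length, 1 a gene, 1.12% hold TTTCCCGC, 0.529% TTTGGCGC, 18.1% TTTGAA and 37.9% CCAAT. The table of promoters matched 95 of the 122 genes, under 80%, so a share over the lists was void and is not given. A match of letters is a description and was not tested as a site of binding.

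The size of the difference depended on cKO replicate 3. Without that library the median of the 122 genes was −0.19, with 105 lower and 19 lower at an unadjusted p under 0.05, where 2.05% of all genes were. By list, the median was −0.21 for the mitosis genes and −0.14 for the replication genes, of which 40 were lower. In the 6 libraries whose animals are named by a letter and number, 2 of each genotype, the median was −0.14, with 101 genes lower and 11 of them at an unadjusted p under 0.05, where 2.2% of all genes were. The direction was kept without flox replicate 3, at −0.22 for replication and −0.35 for mitosis.

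Blood cell precursors divide in bone marrow. A list of 24 marrow genes was put together after the values had been seen, so its counts are a description and no test. In cKO 22 of them had lower levels than controls, with a median of −0.56. Mpo, the peroxidase of neutrophil granules, had 11, 20.6 and 15.1 CPM in flox controls, 21.2, 21.3 and 21.9 CPM in Het, and 8.52, 15 and 3.49 CPM in cKO. The red cell membrane gene Slc4a1 had 62.7 to 93.0 CPM in controls and 58.5, 60.2 and 16.6 CPM in cKO, again with cKO replicate 3 lowest. Of 11 red blood cell genes, 10 were lower, 4 of them at an unadjusted edgeR p under 0.05 (36.4%, against 1.88% of all genes). Their median was −0.31, and −0.54 without cKO replicate 1. Their sums overlapped, at 2743 to 7064 CPM in controls and 3062 to 5001 CPM in cKO. The marrow list summed to 3909 to 4612 CPM in controls and 3956 to 4259 CPM in cKO, nearly all of it from Ltf (3605 to 4217 CPM in controls), which glands also make, and 0 of the 24 genes were at 0 in all 9 libraries. Without cKO replicate 3 the marrow median was −0.37. The part of marrow RNA in the lower level of the dividing-cell genes was not tested.

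The AP-2eCre line of the series, in which Smad4 is deleted earlier and in basal VSNs, has its own 3 cKO and 6 control libraries, so it shares no sample with this comparison. All 9 are labelled female, as are the OMPCre libraries, but its flox replicate 3 had 43.3 CPM of Ddx3y and 36.1 CPM of Eif2s3y, genes of the Y chromosome that were at 0 in its other 8 libraries and at most 0.413 CPM in the OMPCre line. That library goes against its label, so counts and medians of gene lists and the fold changes of single genes in the AP-2eCre line are given with and without it. There the same 122 genes had a median log2 fold change of 0.29, and 110 were higher in cKO, 14 of them at an unadjusted p under 0.05, where 4.18% of all genes were higher, and 1 was lower. Without its flox replicate 3 the median was 0.28, with 108 higher, 10 at that level (3.84% of all genes) and 0 lower. The mitosis list summed to 899.1 to 1009.9 CPM in its cKO and 573.0 to 984.1 CPM in its controls, so the groups overlapped. That library had 790.6 CPM, inside the range of the other controls. The difference between the 2 lines' cKO effects was tested as an interaction over 18 libraries. It called 0 of 19465 genes (0%) at an adjusted p under 0.05, with 956 at an unadjusted p under 0.05, and DESeq2 called 19. Without adjustment, 58 of the 122 genes were lower in the OMPCre line than in the AP-2eCre line at p under 0.05, where 2.51% of all genes were, and their median difference was −0.59 on the log2 scale. Without that library 0 genes were called, and 52 of the 122 were lower at p under 0.05 (2.26% of all genes), with a median difference of −0.60. The marrow and red cell lists had medians of 0.49 and 0.32 in the AP-2eCre line, and 0.60 and 0.20 without that library.

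**Figure D2:**
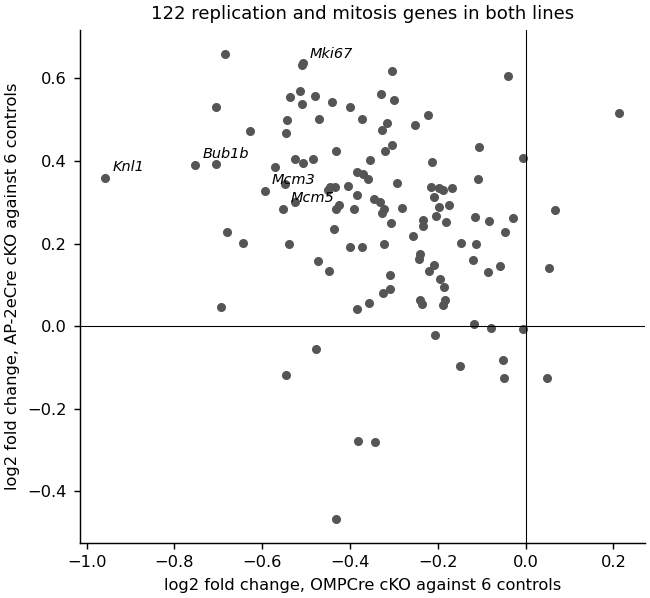
Log2 fold change of cKO against 6 controls for 122 replication and mitosis genes, with the OMPCre line on the horizontal and the AP-2eCre line on the vertical axis, 1 point a gene. In the OMPCre line 118 genes lie below 0, and in the AP-2eCre line 110 lie above 0.

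A further list held genes of VSN progenitors, which divide, and of the immature neurons they give rise to. Of 34 tested, 22 were higher in cKO, with a median of 0.13. At an unadjusted edgeR p under 0.05, 7 were higher (20.6%, against 2.06% of all genes) and 1 lower (2.94%, against 1.88%). The median was 0.06 without cKO replicate 1 and also 0.06 without cKO replicate 2, and up to 0.16 without another library. Without flox replicate 3 and cKO replicate 2 together, 19 were higher and 15 lower, 2 and 1 of them at an unadjusted p below 0.05. The leading gene was Nhlh2, a helix-loop-helix factor of young neurons. It had 52.1, 44.9 and 54.1 CPM in flox controls, 45.8, 52.6 and 44.1 CPM in Het, and 66.6, 69.0 and 74.4 CPM in cKO, a log2 fold change of 0.52 with a standard error of 0.09 (edgeR adjusted p = 0.292; DESeq2 adjusted p = 0.000245). Ebf3, a factor of olfactory neuron differentiation, had 135 to 171 CPM in controls and 191, 198 and 194 CPM in cKO. For both genes the groups did not overlap, and both were above 0 in the AP-2eCre line, at 0.54 and 0.29, or 0.54 and 0.26 without its flox replicate 3. Stmn4, which binds tubulin in neurons, and Elavl4, a neuronal RNA-binding protein, overlapped slightly, with 34.5 to 50.6 and 34.4 to 43.0 CPM in controls against 47.8 to 60.1 and 42.9 to 46.1 CPM in cKO. The sums of the list overlapped, at 2527 to 2931 CPM in controls and 2809 to 3136 CPM in cKO.

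Genes of mature neurons were close to their control level as a group. Of 27 genes of mature VSNs, 15 were higher, with a median of 0.04. On each side 1 gene had an unadjusted edgeR p under 0.05 (3.7%, against 2.06% of all genes higher and 1.88% lower). All 7 apical genes were higher, with a median of 0.19. Without flox replicate 3 the median was 0.18 and 2 of them were lower, and 2 were lower in the letter-named libraries. Their sums overlapped, at 1772 to 2331 CPM in controls and 2055 to 2433 CPM in cKO. In the AP-2eCre line 6 of the 7 were higher, with a median of 0.28, or 6 and 0.24 without its flox replicate 3. Meis2, a transcription factor of apical VSNs, had 150 to 185 CPM in controls and 198, 191 and 199 CPM in cKO, and Gnai2 had 342 to 381 and 430, 445 and 365 CPM. Of 9 basal genes 5 were higher, with a median of 0.01. Gnao1 overlapped between the groups, with 192 to 246 CPM in controls and 219, 240 and 233 CPM in cKO. Tfap2e, the factor that defines basal VSNs, had 13.6 to 18.9 CPM in controls and 18.2, 19.8 and 19.1 CPM in cKO, and the axon guidance receptor Robo2 had 103 to 129 and 122, 135 and 149 CPM.

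Among receptor families, most tested V1r genes had levels above controls in cKO, by small amounts. Of 319 V1r genes, 200 passed the filter on low counts, and 152 of these were higher. The unadjusted edgeR p was under 0.05 for 22 higher genes (11%, against 2.06% of all genes) and 3 lower ones (1.5%, against 1.88%). The median of the 200 genes was 0.17. The medians of the 6 control libraries over these genes had an SD of 0.157 on the log2 scale, nearly as large. Vmn1r47 had 21.5, 23.1 and 24.5 CPM in flox controls, 23.5, 22.6 and 22.9 CPM in Het, and 29.6, 28.5 and 30.04 CPM in cKO. Its log2 fold change was 0.35 with a standard error of 0.06, and DESeq2 called it with an adjusted p of 0.00152. All 3 cKO libraries were above all 6 controls for 9 tested V1r genes, Vmn1r45, Vmn1r14 and the pseudogene Vmn1r-ps14 among them, and below for 0. Over all genes these shares were 1.39% and 0.934%. Vmn1r14 went the other way, to −0.21, when counts were made from length-scaled TPM. Summed over the family, flox controls had 1897, 1829 and 2366 CPM, Het 2193, 2211 and 2248 CPM, and cKO 2417, 2200 and 2502 CPM, so the groups overlapped. The AP-2eCre line, with other libraries, had a median of 0.20 and 147 of 193 genes higher, or 0.21 and 147 without its flox replicate 3. Reads of near-identical receptor genes may be shared among them, so the level of a single receptor is uncertain.

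V2r genes were less uniform. Of 238, 162 were tested and 102 were higher, with a median of 0.10 that was −0.06 without cKO replicate 3. Among the 162, 10 were higher at an unadjusted edgeR p under 0.05 (6.17%, against 2.06% of all genes) and 4 lower (2.47%, against 1.88%). The lower V2r gene with the smallest p was Vmn2r5, which had 18.6, 19.9 and 24.1 CPM in flox controls, 9.72, 14.2 and 25.8 CPM in Het, and 5.25, 6.31 and 8.22 CPM in cKO, a log2 fold change of −1.51 with a standard error of 0.30 (edgeR adjusted p = 0.534; DESeq2 adjusted p = 0.000166). All cKO libraries were below all controls, although Het replicate 1 lay close to them. Vmn2r79 had 35.8 to 46.9 CPM in controls and 29.5, 30.1 and 33.4 CPM in cKO, while Vmn2r53 had 44.3 to 58.3 and 61.1, 59.5 and 73.0 CPM. In the AP-2eCre line the V2r median was −0.38, with 37 genes lower at an unadjusted p under 0.05, where 6.04% of all genes were, and the interaction had 36 V2r genes higher in the OMPCre line at an unadjusted p under 0.05, where 2.4% of all genes were, and 1 lower. Without the AP-2eCre flox replicate 3 that median was −0.27, with 30 genes lower (5.31% of all genes), and the interaction had 24 V2r genes higher (2.04% of all genes) and 1 lower.

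H2-M genes, which basal VSNs express together with V2r receptors, were split. Of 11 tested, 2 were higher and 2 lower at an unadjusted edgeR p under 0.05 (18.2% each, against 2.06% and 1.88% of all genes). H2-M10.4 had 25.8, 26.3 and 32.0 CPM in flox controls, 18, 14.1 and 19.2 CPM in Het, and 31.2, 33.0 and 57.5 CPM in cKO. H2-M9 had 5.68 to 8.71 CPM in controls and 3.93, 5.42 and 5.90 CPM in cKO. Both overlapped between groups. Of 8 formyl peptide receptor genes, 7 were tested and 0 had an unadjusted p under 0.05.

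Odorant receptor genes were near their control level as a family, with 198 of 425 tested genes higher and a median of −0.04. Olfr464 (ENSMUSG00000060787.9) had 1.53, 1.32 and 0.635 CPM in flox controls, 1.13, 0.330 and 0.863 CPM in Het, and 3.98, 7.47 and 8.12 CPM in cKO. Its log2 fold change of 2.75, with a standard error of 0.42, was the largest among the 12 genes described next, and the groups did not overlap.

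The 12 protein-coding genes with the smallest p among those whose cKO libraries all lay above all controls had log2 fold changes of 0.48 to 2.75 and edgeR adjusted p of 0.0503 to 0.308. In the AP-2eCre line, whose libraries did not choose them, all 12 had levels above controls, 11 at an unadjusted p under 0.05, where 4.18% of all genes were higher. Without its flox replicate 3 it was 9 of the 12, where 3.84% of all genes were. Slc14a2, a urea transporter, and Unc13c, which readies synaptic vesicles for release, had the smallest adjusted p.

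Slc14a2 (ENSMUSG00000024552.16) had 11.05, 8.60 and 14.2 CPM in flox controls, 14.9, 13.5 and 10.39 CPM in Het, and 31.7, 34.0 and 37.2 CPM in cKO. All cKO libraries were far above all controls, with means of 34.3 ± 2.75 (SD, n = 3) and 12.1 ± 2.46 CPM (SD, n = 6). Its log2 fold change was 1.503 with a standard error of 0.16, and adjusted p was 0.0503 by edgeR, 0.00713 by limma and 1.5e-12 by DESeq2. The gene lies on chromosome 18 from 78146148 to 78596942, 4.44 Mb from Smad4. In the AP-2eCre line its log2 fold change was 0.84, or 0.83 without its flox replicate 3.

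Several of the other higher genes act at synapses or on the neuronal surface. Unc13c (ENSMUSG00000062151.13) had 4.01, 2.69 and 4.37 CPM in flox controls, 3.63, 4.08 and 5.05 CPM in Het, and 12.7, 10.5 and 15.2 CPM in cKO, and its log2 fold change was 1.69, against 1.74 in the AP-2eCre line and 1.69 there without flox replicate 3. Sez6l, a membrane protein of neurons, had 0.982 to 1.89 CPM in controls and 4.53, 5.57 and 3.95 CPM in cKO, a log2 fold change of 1.72 with a standard error of 0.24 (edgeR adjusted p = 0.119), and 2.01 in the AP-2eCre line, or 1.96 without its flox replicate 3. Tenm2, a teneurin that binds across synapses, had 68.5, 62.9 and 92.9 CPM in flox controls, 80.0, 75.6 and 72.3 CPM in Het, and 126, 111 and 122 CPM in cKO. That all 3 cKO libraries lay above both kinds of control in these genes was set by the rule that chose them.

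Gcnt2, which adds branches to sugar chains on cell surface proteins, had 60.8 to 68.2 CPM in controls and 92.7, 85.2 and 87.5 CPM in cKO, a log2 fold change of 0.48 with a standard error of 0.06. Pla2g16, a phospholipase, had 117 to 136 CPM in controls and 184, 173 and 188 CPM in cKO. For both genes the standard deviation over the 6 controls was small, at 3.05 and 7.18 CPM. Srd5a1, the steroid 5-alpha-reductase that makes dihydrotestosterone, had 10.5 to 17.1 CPM in controls and 22.3, 22.9 and 24.9 CPM in cKO. Tmem104 and D930020B18Rik, whose functions are less known, had log2 fold changes of 0.50 and 0.57.

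**Figure D3:**
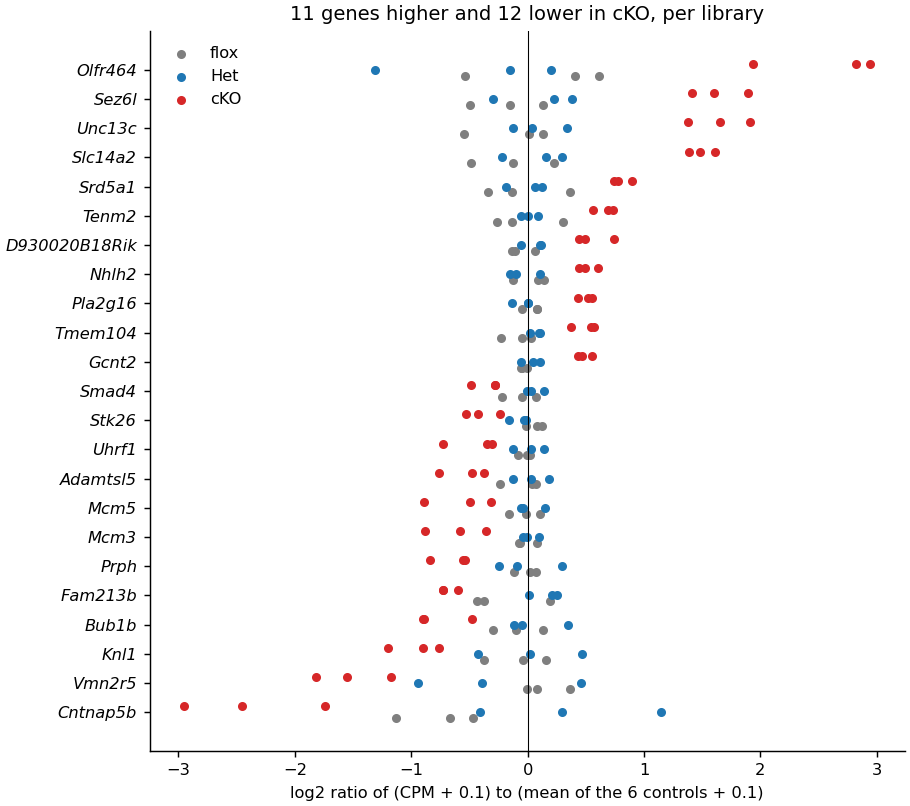
Log2 ratio of each library's CPM plus 0.1 to the mean of the 6 controls plus 0.1, for 11 of the 12 genes higher and the 12 lower in cKO with the smallest p, 1 row a gene, with flox controls in grey, Het in blue and cKO in red. The cKO libraries lie on 1 side of all controls in every row by the rule that chose the genes, and the controls spread most for Cntnap5b and Olfr464.

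Beyond these genes, lists of synaptic and adhesion genes had medians close to 0, which differed between the controls. Of 67 presynaptic genes, 40 were higher, with a median of 0.06. Their unadjusted edgeR p was under 0.05 for 6 higher genes (8.96%, against 2.06% of all genes) and 1 lower (1.49%, against 1.88%). All cKO libraries were above all controls for 5 of the 67 and below for 0, where 1.39% and 0.934% of all genes were. Unc13c was among these 5. So was Slc17a6, the glutamate transporter of synaptic vesicles, which had 62.9 to 78.1 CPM in controls and 80.5, 84 and 98.3 CPM in cKO. Syt13 had 0.182 to 0.728 CPM in controls and 1.02, 1.03 and 1.29 CPM in cKO, and the more abundant Syt11 had 257 to 334 and 348, 352 and 373 CPM. The median was −0.00268 against Het, with 33 genes higher and 34 lower, and 0.12 against flox controls, of which replicate 2 had the lowest sum. Without cKO replicate 3 the median against 6 controls was −0.02.

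Of 95 axon guidance and adhesion genes, 62 were higher, 8 at an unadjusted p under 0.05 and 1 lower, with a median of 0.08 that was 0.06 against Het, 0.12 against flox controls and −0.01 without cKO replicate 3. All cKO libraries were above all controls for 7 of them and below for 0. Ncam1, an adhesion molecule on neurons, had 318, 298 and 300 CPM in flox controls, 310, 301 and 271 CPM in Het, and 372, 394 and 373 CPM in cKO. Its log2 fold change was 0.34, and DESeq2 called it with an adjusted p of 0.000383. In the AP-2eCre line it was 0.34 with all libraries and 0.27 without flox replicate 3. Sdk1, Pcdh7 and the plexin Plxnb2, which also act in cell contact or guidance, had log2 fold changes of 0.30, 0.31 and 0.19 without overlap. Of the 58 clustered protocadherins, which label single neurons with different surface proteins, 34 were higher. The unadjusted edgeR p was below 0.05 for 5 higher genes (8.62%, against 2.06% of all genes) and 0 lower ones (1.88% of all genes). Against Het 29 were higher and 29 lower, and the median was 0.00322, while it was 0.14 against flox controls. Pcdha2 had 4.79 to 7.41 CPM in controls and 9.39, 9.55 and 9.61 CPM in cKO.

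The 12 lower protein-coding genes chosen by the mirrored rule had log2 fold changes of −2.70 to −0.35 and edgeR adjusted p of 0.529 to 0.909. They held 5 replication and mitosis genes (Mcm3, Mcm5, Uhrf1, Knl1 and Bub1b), Smad4 itself and Vmn2r5. In the AP-2eCre line 5 of the 12 were lower, 3 of them at an unadjusted p below 0.05, where 6.04% of all genes were, or 5 and 2 without its flox replicate 3, where 5.31% were. Prph, an intermediate filament protein of peripheral neurons, had 15.9, 15.4 and 14.0 CPM in flox controls, 18.6, 14.2 and 12.8 CPM in Het, and 10.39, 10.3 and 8.41 CPM in cKO. Cntnap5b, a neuronal adhesion gene, had 0.654 to 1.09 CPM in flox controls, 1.14, 1.92 and 3.54 CPM in Het, and 0.393, 0.113 and 0.200 CPM in cKO. Against Het its log2 fold change was −3.21, and against flox controls −1.91. Fam213b, Stk26 and Adamtsl5 had log2 fold changes of −0.69, −0.40 and −0.54.

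Immediate early genes are switched on within minutes by activity in neurons and by stress in other cells. Of 26, 21 were lower in cKO, with a median of −0.29. At an unadjusted edgeR p under 0.05, 5 were lower (19.2%, against 1.88% of all genes) and 0 higher (2.06% of all genes). Without 1 library the median ran from −0.31 to −0.17, the last without Het replicate 3, and was −0.19 without flox replicate 3, and in letter-named libraries it was −0.11. Summed over the list, cKO libraries had 665.5, 655.7 and 659.0 CPM and controls 633.3 to 938.6 CPM, so the groups overlapped, and 3 controls lay below the highest cKO library. Fos had 8.43, 14.5 and 15.7 CPM in flox controls, 10.7, 14.1 and 19.3 CPM in Het, and 8.43, 7.40 and 7.44 CPM in cKO. Only flox replicate 1 among the controls was as low as the cKO. Zfp36 had 25 to 31.0 CPM in controls and 23.0, 24.4 and 17.0 CPM in cKO, without overlap. Dusp5 and Ier2 had log2 fold changes of −0.68 and −0.34 with overlap. In the AP-2eCre line 21 of the 26 genes were higher, with a median of 0.23, or 21 and 0.19 without its flox replicate 3.

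Of 19 glial genes 13 were lower, 2 of them at an unadjusted edgeR p under 0.05 (10.5%, against 1.88% of all genes). The list had a median of −0.05. Mbp, a protein of myelin, had 45.7 to 55.7 CPM in controls and 42.0, 44.4 and 40.3 CPM in cKO, without overlap.

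Genes of the Smad4 pathway and its targets were near their control level as groups. Of 48 genes of the TGF-beta and BMP pathway, 24 were higher and 24 lower, with a median of 0.01. Beside Smad4, the ligand gene Tgfb2 had 43.7 to 51.6 CPM in controls and 57.5, 56.3 and 51.7 CPM in cKO, and the BMP antagonist Chrdl1 had 16.7 to 27.5 and 26.1, 28.5 and 26.1 CPM. Of 25 genes listed as direct SMAD targets, 14 were higher, with a median of 0.03. Pmepa1, a target of TGF-beta signalling that also restrains it, had 51.2 to 64.7 CPM in controls and 63.0, 74.7 and 68.9 CPM in cKO. Id4, a target of BMP signalling, had 34.7 to 41.2 CPM in controls and 35.2, 29.7 and 32.6 CPM in cKO. The targets are expressed by many cells of the organ that OMPCre does not reach, and Col1a1 of bone and connective tissue was the most abundant of them. The part of VSNs in the levels of these targets was not tested.

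Skin and muscle genes had the lowest medians of all lists, −1.74 and −1.80, and 1 library or a few set both. The 37 genes of skin and squamous epithelium summed to 346.2, 1733 and 7538 CPM in flox controls, 545.8, 545.8 and 253.1 CPM in Het, and 455.0, 1154 and 385.0 CPM in cKO. Those of skeletal muscle summed to 46.7, 48.4 and 404 CPM in flox controls, 42.5 to 52.4 CPM in Het, and 46.1 to 64.0 CPM in cKO. Flox replicate 3 was the highest library for both lists, with flox replicate 2 and cKO replicate 2 next for skin. Without flox replicate 3 the medians were 0.06 for skin and 0.08 for muscle. Without both flox replicate 3 and cKO replicate 2 they were −1.22, with 31 skin genes lower and 1 higher, and −0.34. Against Het the muscle median was 0.01 and the skin median 1.04, the latter with cKO replicate 2 at the highest level of the 6 libraries. In flox replicate 3 Krt1, a keratin of the upper skin layers, had 1472 CPM, against a median of 1.89 CPM in the other 8. Krt71, a keratin of the hair follicle, had 202 CPM there against a median of 0 CPM. Acta1, the actin of skeletal muscle, had 40.4 CPM there and 0.0364 to 1.82 CPM elsewhere. Flox replicate 3 also had the most adipocyte RNA, at 774 CPM against 267 to 345 CPM in the others, and the least from motile cilia, at 777 against 1014 to 1799 CPM.

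**Figure D4:**
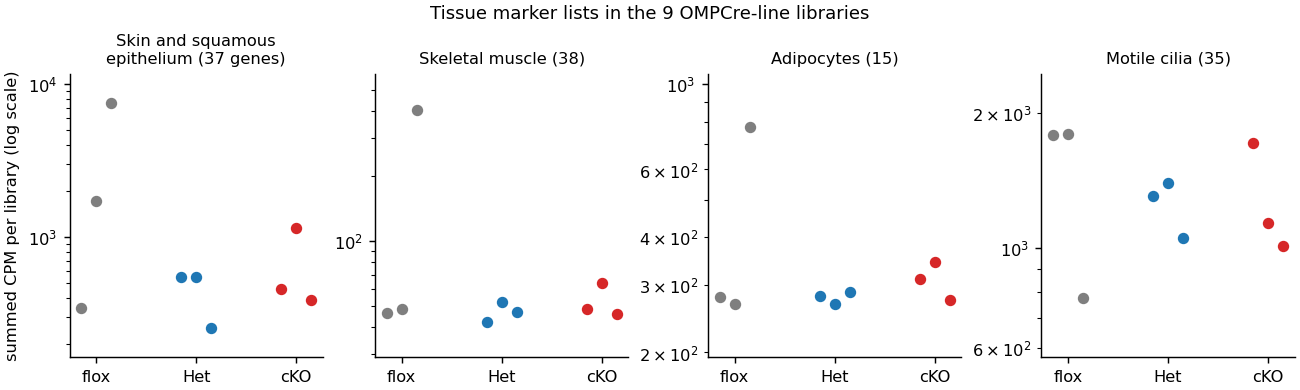
Summed CPM per library on a log scale for 4 marker lists of tissues around the sensory epithelium, with flox controls in grey, Het in blue and cKO in red. Flox replicate 3 is the highest library for skin, skeletal muscle and adipocytes and the lowest for motile cilia.

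Smaller amounts of other tissues stood out in other libraries. Amelx and Enam, genes of tooth enamel, had 83.8 and 7.89 CPM in Het replicate 2, and medians of 0.235 and 0 CPM in the other 8. Enam was counted in 3 of 6 controls and 0 cKO libraries, and DESeq2 called it lower. Klk1, a kallikrein of salivary and other glands, had 600 CPM in cKO replicate 1 and a median of 7.36 CPM in the others. Flox replicate 2 had the highest interferon response, at 922 CPM against 444 to 572 CPM in the other 8 libraries, and Gbp10 was among its leading genes.

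The 2 kinds of control also differed from each other in genes that set the cKO calls against each. Against Het alone, with flox controls kept in a fit of 3 groups, 10 genes were called (0.0537%), 5 higher and 5 lower, and against flox controls 1 was (0.00537%). With the replicate number as a block 6 and 0 genes were called. Leaving out 1 library left 3 to 9 calls against Het, 3 without cKO replicate 1 or cKO replicate 3, 4 without cKO replicate 2 or Het replicate 2 and 6 without Het replicate 1. Against flox controls it left 0 to 5, with 0 without cKO replicate 1 or cKO replicate 3, 2 without flox replicate 2 and 5 without flox replicate 3. For only 2 of the 10 did the cKO also stand clear of all 6 controls. Wdfy1, an endosomal adaptor of innate immune signalling, had 108, 111 and 78.4 CPM in flox controls, 30.4, 26.6 and 34.7 CPM in Het, and 127, 131 and 139 CPM in cKO. Trim12a, a gene of antiviral defence, had 0.243 to 0.799 CPM in flox controls, 7.95, 7.56 and 7.61 CPM in Het, and 0.113 to 0.291 CPM in cKO. Gdpd3, a phosphodiesterase, had 6.79 to 10.3, 0.527 to 0.767 and 3.55 to 6.67 CPM in the same order. In these genes the Het libraries stood apart from both groups with floxed alleles. Of the 10, 4 lie on chromosome 7, the chromosome of Omp (98143359 to 98145502): Olfm5, Trim12a and the pseudogene Gm1966 between 104153013 and 106604035, and Gdpd3 from 126766334 to 126775649. Wdfy1 lies on chromosome 1, and the other 5 are processed pseudogenes on other chromosomes than 7.

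Olfactory genes stood apart in the Het in the same way. The 16 listed genes of main olfactory neurons summed to 1685 to 2209 CPM in flox controls, 2280 to 2334 CPM in Het and 2042 to 2236 CPM in cKO. Of these, 14 were lower in cKO than in Het and 2 higher. At an unadjusted edgeR p under 0.05, 6 were lower, where 2.18% of all genes were, and 0 higher. Gnal, the G protein of main olfactory neurons, had 51.9, 40.5 and 25 CPM in flox controls, 89.4, 90.0 and 104 CPM in Het, and 34.0, 34.6 and 48.1 CPM in cKO. Stoml3, of the same neurons, had 18 to 44.1, 57.9 to 62.3 and 28.4 to 32.0 CPM. Odorant receptor genes summed to 518 to 605 CPM in flox controls, 714 to 748 CPM in Het, and 558 to 663 CPM in cKO, and 29 of the 425 were lower in cKO than in Het at an unadjusted p under 0.05, where 2.18% of all genes were, and 1 was higher. Het libraries were above all others in each of these measures. The share of main olfactory tissue in the libraries was not tested. Omp, which is cut to 1 working copy in both Cre groups, had 414, 305 and 478 CPM in flox controls, 225 to 248 CPM in Het and 238 to 286 CPM in cKO, so its log2 fold change was −0.62 against flox controls and 0.14 against Het.

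**Figure D5:**
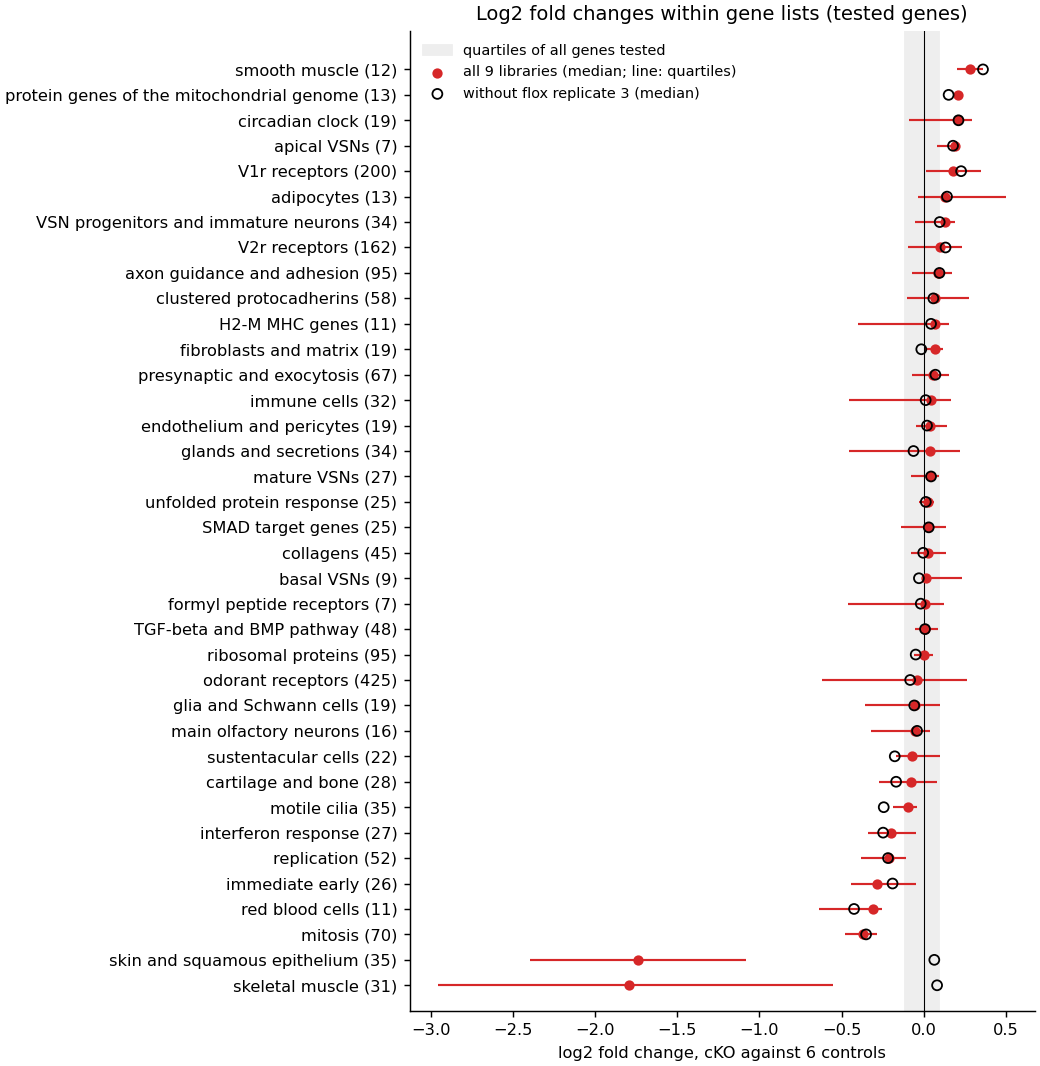
Median log2 fold change of cKO against 6 controls for 37 gene lists (red, with quartiles as lines, and the number of tested genes in brackets), beside the median without flox replicate 3 (open circles) and the quartiles of all tested genes (grey band, −0.11 to 0.09). Skin and skeletal muscle lie near 0 without that library alone, while mitosis and replication do not.

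The remaining lists lay closer to the quartiles of all genes or followed single libraries. Smooth muscle was higher in 11 of 12 genes, with a median of 0.28, which was 0.15 without cKO replicate 2 and 0.44 without cKO replicate 1, and 0 genes at an unadjusted p under 0.05, and its sums overlapped, at 2323 to 3910 CPM in controls and 2821 to 4534 CPM in cKO. The 13 protein genes of the mitochondrial genome were all higher, with a median of 0.21 and 0 at an unadjusted p under 0.05, since cKO replicates 1 and 2 were high (64907 and 62474 CPM) and replicate 3 was low (35464 CPM). Clock genes had a median of 0.21 that was −0.01 without cKO replicate 3. Dbp, an output gene of the clock, had 19.2 and 21.6 CPM in Het replicates 1 and 2 and 45.8 to 67.2 CPM in the other 7 libraries, and times of collection are not given in the labels. Genes of ribosomal proteins, collagens, endothelium, fibroblasts and the unfolded protein response had medians of 0.00 to 0.07. Without 1 library the collagen median ran from −0.10 to 0.17 and that of fibroblasts from −0.08 to 0.17. Of the 19 fibroblast genes, 19 were higher against flox controls, and 7 higher and 12 lower against Het. The ribosomal list was drawn by gene name and also holds a few ribosomal protein kinases. Immune cells, glands, cartilage and bone, sustentacular cells and main olfactory neurons had medians of 0.04, 0.04, −0.08, −0.07 and −0.06, and adipocytes 0.13. The main olfactory median was −0.20 against Het, with 14 of 16 genes lower, and 0.12 against flox controls, with 13 higher. Without 1 library the gland median ran from −0.30 to 0.07 and the sustentacular median from −0.31 to 0.14. Interferon response genes had a median of −0.20, with 0.01 against Het and −0.36 against flox controls, which hold the library named above. Motile cilia were lower in 31 of 35 genes with a median of −0.10 that was 0.06 without cKO replicate 3, and 0 had an unadjusted p under 0.05. None of the 16 trace amine receptors passed the filter on low counts.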

How the data were processed

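RNA of whole VNOs was sequenced as stranded polyA+ libraries with single reads. The authors quantified transcripts with Salmon 0.14.0 on a mouse assembly named mm10 or GRCm38 and deposited, for each library, an estimated count and a TPM value per transcript. The estimated counts were summed here per gene and rounded to whole numbers, and at most 0.0289% of a library's counts had no gene. TPM as deposited by the authors entered only 1 alternative, length-scaled counts. Genes with low counts were removed with filterByExpr, libraries were scaled by TMM, and cKO was compared with the 6 controls, with each control in a fit of 3 groups, and between the 2 Cre lines as an interaction, by edgeR 4.0.16 in R 4.3.3 (quasi-likelihood test, Benjamini-Hochberg adjustment). DESeq2 1.42.0 and limma 3.58.1 with voom quality weights were alternatives, and all were tested on simulated data.

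Groups followed the titles and genotype labels. An additional library of the AP-2eCre line, whose title and genotype label disagree, was left out. The p-values measure the spread between libraries, and 3 counts are at most 0.0616 CPM at these depths. Named genes were protein-coding genes whose mean level reached 1 CPM and whose cKO and control libraries did not overlap, the 12 higher and 12 lower with the smallest p, with Smad4, Omp, Unc13c and Tenm2, up to 4 genes of each list by smallest p with its most abundant gene, and the 10 genes with the largest ratio of 1 library to the median of the other 8, with 0.1 CPM added. Genes called against each control or by DESeq2, and Trpc2, Gnal, Stoml3, Olfm5, Trim12a, Gdpd3, Wdfy1, Mcm2, Amelx, Kif15, Racgap1, Rfc3 and Gins3 where outside this rule, were named after their values were seen. The experiment and the gene lists were chosen with earlier results of these data known, and the marrow list was added after the values of this comparison were seen. Some genes, among them members of the groups described, are not reported here.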

Additional observations from a re-analysis of the deposited data

Results flagged for a closer look

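Summed levels of the gene lists and the levels of the named genes were searched for a control library far from the other 5, by Dixon's criterion at 95%, and 9 of 107 tests were positive, where chance gives about 1 in 20. Flox replicate 3 was the high library in 5 of them, with 404 CPM of skeletal muscle genes against a median of 47.7 CPM over the 6 controls, 7538 CPM of skin genes against 545.8 CPM, 774 CPM of adipocyte genes against 280.1 CPM, and with 58.3 CPM of Vmn2r53 against 47.6 CPM and 46.9 CPM of Vmn2r79 against 37.5 CPM. Flox replicate 1 had 1431 CPM of endothelial genes, against a median of 934 CPM, and the lowest level of Mcm2, at 16.8 CPM against 19.8 CPM. Flox replicate 2 had the highest interferon response, at 922 CPM against 495 CPM, and the lowest sum of presynaptic genes, at 2691 CPM against 3210 CPM. All 9 were in flox controls.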

How the results depend on the processing

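The number of genes called against 6 controls, 0 by edgeR, was 43 with DESeq2, 6 with limma voom and quality weights, 2 with at least 10 counts in every library, 6 in the 3-group fit, 11 against Het controls alone, 1 with library name form as a covariate, 2 with a robust prior, and 0 to 2 without 1 library at a time. Genes at an unadjusted p under 0.05 numbered 1194 with voom. Against Het, DESeq2 called 141 genes and single omissions left 3 to 9, and against flox controls DESeq2 called 79 and omissions left 0 to 5. The interaction gave 19 calls with DESeq2 and 0 to 1 with omissions. The replication median was −0.12 in letter-named libraries, −0.30 without flox replicate 3 and cKO replicate 2, and −0.30 to −0.14 without 1 library. The mitosis median was −0.24 with voom, −0.15 in letter-named libraries, and −0.52 to −0.21 without 1 library. The skeletal muscle median was −0.15 with voom, 0.00893 against Het alone, 0.18 in letter-named libraries, −0.34 without flox replicate 3 and cKO replicate 2, and −2.002 to 0.0798 without 1 library. The skin median was 0.74 against Het alone, −1.22 without flox replicate 3 and cKO replicate 2, and −2.58 to 0.06 without 1 library. Omp turned to 0.14 against Het alone and Vmn1r14 to −0.21 with length-scaled TPM. The cause was not tested. Of 1586 values of 69 named genes under all alternatives, 1584 kept their direction. Some of these genes were chosen because all cKO libraries lay beyond all controls, so leaving out libraries could hardly turn their direction. The letter-named subset, the paired omission and the omission of the AP-2eCre flox replicate 3, without which the interaction called 0 genes, were chosen after seeing the data.

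With the replicate number as a replicate block, 0 genes were called against 6 controls, 6 against Het and 0 against flox controls, with 1018 at an unadjusted p under 0.05, and the replication and mitosis medians were −0.23 and −0.37, and those of skin and skeletal muscle −0.55 and −0.60. Same-numbered libraries had correlations of their deviations from the group means of −0.0376 to 0.321, with 7 of 9 pairs over 0.1 and a mean of 0.131, against −0.0656 for other numbers. The pairs of replicates 1 and of replicates 3 were all over 0.1, and flox replicate 2 had −0.0352 and −0.0376 with its number, so the block was kept as an alternative. The labels do not say what a number marks, and replicates 3 also share a form of name.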
